A study of Mus musculus with 56 samples.

Results

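Oligodendrocytes wrap axons in myelin, and the genes followed here mark their passage from dividing precursor to myelin-forming cell. The set held 29 genes taken by name from the deposited table of normalised counts, and all 29 were among its 18088 rows. They were ordered by stage, with 3 transcription factors of the whole lineage (Sox10, Olig1, Olig2), 1 precursor gene (Pdgfra), 4 genes of newly formed cells (Gpr17, Bcas1, Enpp6, Nkx2-2) and 21 genes of myelinating cells. The study compared C57BL/6J mice heterozygous for Scn2a (HT), the gene of a neuronal voltage-gated sodium channel, with wild-type mice (WT). Pups received vehicle, fluoxetine (a serotonin reuptake inhibitor) or lithium (a mood stabiliser) through the mother's milk from postnatal day 3 to 24, for 3 weeks, and RNA of the prefrontal cortex was sequenced on postnatal day 25. Females and males were sampled separately, which gave 12 groups of 4 or 5 libraries and 56 libraries in all. WT mice gave 9 vehicle, 9 fluoxetine and 9 lithium libraries, and HT mice gave 10, 9 and 10. The labels name no dam or litter, and pups of 1 dam share her milk, so p-values measure the spread between these libraries only. Dose, and the nature of the Scn2a allele, are not given in the sources used here.

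Precursors carry the receptor for platelet-derived growth factor, divide throughout the postnatal cortex and spread as a network of evenly spaced cells. Some of them stop dividing, pass through a short-lived state marked by the receptor Gpr17 and the phosphodiesterase Enpp6, and then either die or begin to wrap axons. Sox10 acts in every step and, together with the factor Myrf, switches on the genes of compact myelin. The rodent prefrontal cortex is among the last cortical areas to myelinate, and at weaning its myelin is still being laid down. In bulk tissue, fewer cells of a stage and less RNA per cell cannot be told apart, which holds for every value below.

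The sequence just before the start of transcription is shown for 2 myelinating genes that varied together across libraries and for the precursor gene, which followed them only weakly (values below). The sequences are RefSeq's on GRCm38.p6, 250 bases upstream of the start, 5′ to 3′ on the gene's strand, and the capitals mark the letters ACAAAG or ACAATG read on either strand, core letters that Sox factors bind. On the printed strand a match to ACAAAG on the other strand reads CTTTGT, which is also a letter run bound by Tcf and Lef factors. The Mobp window is chr9:120149492-120149741 on the plus strand, that of Mog chr17:37023399-37023648 on the minus strand and that of Pdgfra chr5:75152001-75152250 on the plus strand.
Mobp: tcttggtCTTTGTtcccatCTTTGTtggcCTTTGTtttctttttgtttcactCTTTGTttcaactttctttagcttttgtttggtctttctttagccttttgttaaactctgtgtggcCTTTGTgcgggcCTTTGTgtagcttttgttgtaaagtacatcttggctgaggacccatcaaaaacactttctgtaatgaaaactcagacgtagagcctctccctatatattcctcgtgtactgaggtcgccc
Mog: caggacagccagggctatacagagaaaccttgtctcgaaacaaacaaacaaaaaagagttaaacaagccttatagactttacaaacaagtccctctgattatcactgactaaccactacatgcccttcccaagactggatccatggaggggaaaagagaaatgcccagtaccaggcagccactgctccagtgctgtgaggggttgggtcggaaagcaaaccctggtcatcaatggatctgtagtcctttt
Pdgfra: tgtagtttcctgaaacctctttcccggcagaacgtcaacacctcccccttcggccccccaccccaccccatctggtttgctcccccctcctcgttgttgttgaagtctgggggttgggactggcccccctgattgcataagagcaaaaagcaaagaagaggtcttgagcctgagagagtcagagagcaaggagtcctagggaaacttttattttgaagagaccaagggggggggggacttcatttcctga
The Mobp window held 6 matches, and the windows of Mog and Pdgfra held none. Mobp was the extreme case, since every other window of these genes held at most 1 match. Of the 29 genes, 19 had an entry in the promoter table, with 22 windows, and 9 of these windows, from 8 genes (Cnp, Enpp6, Ermn, Mag, Mobp, Olig2, Opalin and Tspan2), held a match. The same letters stood in 25.2% of all 32851 windows of that length. A match is a run of letters and not a shown binding site, and windows for Sox10, Mbp and Enpp2 were not used here.

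Summed over the 18088 genes of the table, the libraries held 24.3 to 36.4 M recovered reads (M stands for mega, median 27.9 M). A normalised count is a library's reads for a gene divided by that library's size factor, which ran from 0.818 to 1.23. Scn2a itself stood at 8554 ± 423 (SD, n = 29; 7583 to 9619) in HT and at 12311 ± 780 (SD, n = 27; 9727 to 13381) in WT libraries, so the groups did not overlap. Neighbouring tissue differed between dissections. A marker score is the mean over a list of marker genes of log2(normalised count + 1), less each gene's mean over all libraries. The score of 11 striatal genes (among them Drd1, Drd2 and Ppp1r1b) was over 1 in 7 libraries and that of 10 olfactory bulb and neuroblast genes (among them Cdhr1, Eomes and Dcx) in 11, together 17 of 56. Of the Schwann cell markers, which belong to peripheral myelin, Prx stood at 11.8 to 36.8 and Ncmap at 1.01 to 26.1.

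All 29 genes were well above the limit for testing, and their levels spanned a wide range. To compare genes, the normalised count was divided by the median length of the gene's annotated transcripts in kilobases (kb). Mobp and Mbp, structural proteins of compact myelin, stood highest at 37052 ± 8137 and 34533 ± 7643 per kb (SD, n = 56), above 99.8% of all genes for both. Behind them came the tetraspanin Tspan2 at 4487 per kb, the iron carrier transferrin (Trf) at 4143, the membrane-sorting protein Mal at 3842 and the cyclic nucleotide phosphodiesterase Cnp at 3781. The adhesion protein Mag, the secreted enzyme Enpp2, carbonic anhydrase Car2, the tight-junction protein Cldn11 and the surface protein Mog lay between 2450 and 1348 per kb. Lower members of the myelinating stage were the galactolipid enzymes Ugt8a (587) and Fa2h (412), the factor Myrf (319), the cytoskeletal protein Ermn (250), the connexin Gjc3 (223), the receptor Gpr37 (221), the membrane protein Opalin (221), the aspartoacylase Aspa (195), Plekhh1 (136) and the homeodomain factor Nkx6-2 (116).

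Genes of earlier stages lay within the range of the myelinating genes, except for Nkx2-2, which stood lowest of all 29. Bcas1, a protein of cells that are starting to myelinate, stood at 891 ± 176 per kb, Gpr17 at 677 ± 47.8, Pdgfra at 675 ± 58.4, Enpp6 at 342 ± 76.8 and the homeodomain factor Nkx2-2 at 72.1 ± 12.3 (SD, n = 56). Among the lineage factors, Olig1 stood at 1274 ± 164, Sox10 at 372 ± 59.8 and Olig2 at 253 ± 40.9. The median over genes was 1348 per kb for the myelinating stage, 510 for the newly formed stage and 372 for the lineage factors. These medians rest on the transcript length: with the longest transcript they were 822, 387 and 363, Pdgfra was at 284 in place of 675, and Mobp at 5615 in place of 37052. The order also rests on it: with the longest transcript Mbp (13926) stood above Mobp, Cnp (3781), Mal (2257) and Cldn11 (2172) came next, and Trf stood at 1310 and Tspan2 at 822. Enpp6 (95.7) then also lay below the lowest myelinating gene, Plekhh1 (110).

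**Figure D1:**
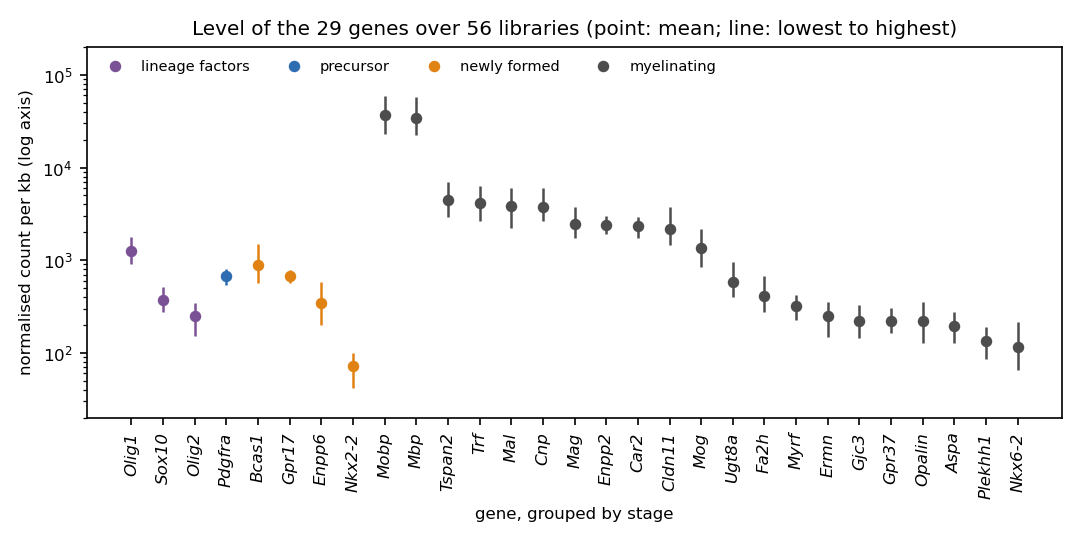
Mean normalised count per kb of transcript (log axis) of each of the 29 genes over 56 libraries, grouped by stage, with a line from the lowest to the highest library. Mobp and Mbp stand near 37052 and 34533 per kb, apart from all other members, and the lines of Gpr17 and Pdgfra are short beside those of Mbp and Enpp6.

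Lithium raised 1 of the 29 genes. Enpp2 (ENSMUSG00000022425, chr15:54838901-54952892 on the minus strand of GRCm38) encodes autotaxin, a secreted enzyme that makes lysophosphatidic acid from lysophospholipids. Its transcript is found in maturing oligodendrocytes and, at high levels, in choroid plexus. In WT females the normalised counts of Enpp2 were 7001, 6922, 5249, 6122 and 5356 with vehicle and 7184, 8034, 7538 and 6938 with lithium. In WT males they were 6558, 5979, 5269 and 6574 with vehicle and 7531, 6765, 7625, 6565 and 8133 with lithium. All 9 WT lithium libraries lay above the mean of the WT vehicle libraries and 6 of them above the highest, with overlap in the rest.

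In HT females Enpp2 counts were 5541, 5915, 6478, 6027 and 5752 with vehicle and 6211, 6282, 6325, 8017 and 7012 with lithium. In HT males they were 5781, 5494, 6114, 5486 and 6467 with vehicle and 5947, 6882, 7462, 7666 and 6623 with lithium. All 10 HT lithium libraries lay above the HT vehicle mean and 6 above the highest vehicle library. Group means were 6114 ± 699 with vehicle and 7368 ± 545 with lithium in WT (SD, n = 9 each), and 5906 ± 368 and 6843 ± 691 in HT (SD, n = 10 each).

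The rise of Enpp2 on the log2 scale was 0.28 in WT (SE 0.06, adjusted p = 0.0096) and 0.21 in HT (SE 0.06, adjusted p = 0.025). Over both genotypes it was 18.3% (log2 change 0.24, 95% interval 0.15 to 0.33, adjusted p = 0.00014). The tests are limma's moderated test over 17778 genes with Benjamini-Hochberg adjustment, and a gene is called below 0.05. The effect in HT less that in WT was -0.07 (95% interval -0.25 to 0.11, adjusted p = 0.81), so a difference between the genotypes was not detectable. With fluoxetine, compared with the same vehicle libraries, Enpp2 stood at 6544 ± 637 in WT (5619 to 7603, median 6712, SD, n = 9) and 6389 ± 747 in HT (5717 to 8111, median 6214, SD, n = 9). These log2 changes of 0.10 and 0.11 were not called (adjusted p = 0.58 and 0.63). In each genotype 7 of 9 fluoxetine libraries lay above the vehicle mean of their own sex. Above the highest vehicle library lay 2 in WT and 3 in HT. Lithium was not compared with fluoxetine, so whether the rise is particular to lithium was not tested.

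Several marker lists moved beside Enpp2, and their part in its rise was not tested beyond the fits given here. In WT, all 7 neuron markers lay higher with lithium, 2 of them called (Tbr1 at 0.18 and Snap25 at 0.13 on the log2 scale), and all 8 meningeal markers lay lower, 2 called (Slc6a13 at -0.38 and Igf2 at -0.32). All 10 olfactory markers were lower in WT lithium libraries with 0 called (median -0.59, summed level 4522 to 9689 against 4773 to 22426 with vehicle). In HT, 5 of 7 neuron markers and 9 of 10 olfactory markers were higher and 0 of either list was called. Across the 56 libraries, with group means removed, Enpp2 ran against the olfactory score with r = -0.55 and rho = -0.53 (permutation p = 0.00037 and 0.00056, adjusted over the 17 pairs computed 0.00079 and 0.0014). It ran with the neuron score with r = 0.48 and rho = 0.45 (permutation p = 0.0021 and 0.0034, adjusted 0.0039 and 0.0057). Without the 2 libraries farthest out on each score, r was -0.51 and 0.43, and both pairs were added after their values were known. With the striatal and olfactory scores as covariates the rise was 0.22 in WT (adjusted p = 0.017) and 0.22 in HT (adjusted p = 0.0035), whereas with the neuron score as a covariate it was 0.18 in WT (adjusted p = 0.078) and 0.21 in HT (adjusted p = 0.0087).

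Choroid plexus markers were low and showed no detectable relation to Enpp2. The summed normalised count of its 8 markers (Kl, Folr1, Clic6, Kcnj13, F5, Otx2, Sostdc1 and Prlr) was 120 to 393 in WT lithium and 165 to 229 in WT vehicle libraries, and 119 to 281 against 107 to 377 in HT. None was at 0 in all libraries, 4 of 8 were higher with lithium in WT and 3 of 8 in HT, and 0 were called. The choroid plexus score and Enpp2 had r = 0.07 and rho = -0.02 (permutation p = 0.66 and 0.91). Median counts of these markers over libraries ran from 4.31 (Otx2) to 60.9 (Kl), so counting noise enters the score and a weak relation could be missed. Whether choroid plexus tissue contributed to the Enpp2 values was not tested further. Omission of single libraries left the WT call in place (log2 change 0.24 to 0.30). The HT call was lost without HT lithium female 4 (0.18, adjusted p = 0.063), HT lithium male 3 (0.19, adjusted p = 0.057) or HT lithium male 4 (0.19, adjusted p = 0.0502).

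**Figure D2:**
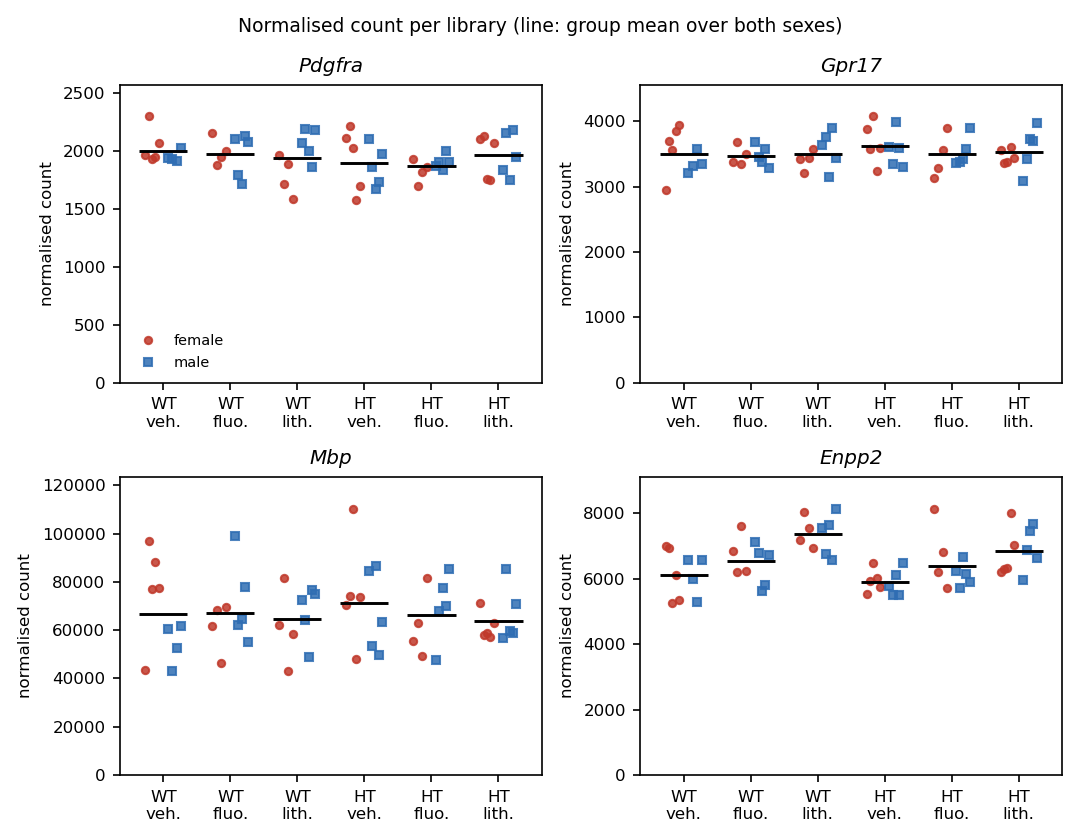
Normalised count of Pdgfra, Gpr17, Mbp and Enpp2 in each library, by genotype and treatment, with females as circles, males as squares and the group mean as a line. The Enpp2 means are 7368 (WT) and 6843 (HT) with lithium against 6114 and 5906 with vehicle, while the Pdgfra, Gpr17 and Mbp groups overlap throughout.

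Lithium changed the level of many genes, and Enpp2 was the only member among them. It called 5.71% of the genes tested in WT, 8.77% in HT and 16.2% over both genotypes, against 1 of 29 members in each comparison. Over both genotypes the members' median log2 change was -0.02, that of all genes was 0.00, and 13 members were higher and 16 lower. With the neuron score as a covariate the median was 0.04, with 7 of 29 lower. The intervals set how large a change of the other members these libraries could have hidden. Among the lineage factors, the log2 change was -0.02 for Sox10 (95% interval -0.17 to 0.13), 0.00 for Olig2 (-0.16 to 0.17) and -0.09 for Olig1 (-0.21 to 0.03). Sox10 ran from 742 to 1387 (median 1033) with vehicle and from 844 to 1226 (median 980) with lithium in WT, and from 774 to 1381 (median 1066) and 802 to 1168 (median 1040) in HT, with full overlap.

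The precursor gene moved little under lithium. Pdgfra ran from 1909 to 2297 (median 1945) with vehicle and from 1582 to 2191 (median 1964) with lithium in WT, and from 1574 to 2216 (median 1914) and 1747 to 2178 (median 2008) in HT. Its log2 change over genotypes was 0.00 (95% interval -0.08 to 0.08). The newly formed stage had 4 of 4 members below vehicle over both genotypes, and 0 were called. Gpr17 was at -0.02 (95% interval -0.08 to 0.05), Bcas1 at -0.10 (-0.28 to 0.09), Enpp6 at -0.21 (-0.41 to -0.01, adjusted p = 0.16) and Nkx2-2 at -0.19 (-0.34 to -0.03, adjusted p = 0.084).

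Enpp6, which hydrolyses choline phospholipids and appears as precursors commit, spread widely in every group. Its counts ran from 320 to 668 (median 508) with vehicle and 277 to 543 (median 462) with lithium in WT, and from 369 to 817 (median 574) and 365 to 550 (median 435) in HT. The highest vehicle libraries lay above all lithium libraries, and the lower ends met. Nkx2-2, which represses the precursor program, ran from 98.9 to 144 (median 124) and 83.6 to 127 (median 106) in WT, and from 89.99 to 156 (median 131) and 93.1 to 137 (median 114) in HT. Calls for these 2 genes came and went with the fit: Nkx2-2 was called when only the groups compared were fitted (adjusted p = 0.037), and both were called with the striatal and olfactory scores as covariates (Enpp6 at -0.22, adjusted p = 0.048, and Nkx2-2 at -0.19, adjusted p = 0.0496). Nkx2-2 was also called without WT fluoxetine male 5 (adjusted p = 0.048) or WT vehicle female 1 (adjusted p = 0.0499).

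Of the 21 myelinating genes, 20 were not called under lithium. Mbp ran from 43160 to 97014 (median 61927) with vehicle and from 43020 to 81541 (median 64164) with lithium in WT, and from 48206 to 110360 (median 72086) and 56977 to 85239 (median 59370) in HT. Its log2 change over genotypes was -0.06 (95% interval -0.27 to 0.15). Mobp was at 0.05 (-0.17 to 0.27), Mog at -0.05 (-0.27 to 0.16) and Opalin, a membrane protein of myelinating cells, at -0.05 (-0.30 to 0.20). Mog counts had medians of 1584 and 1685 in WT and of 1580 and 1398 in HT for vehicle and lithium, and those of Opalin 392.5 and 451 in WT and 432 and 369 in HT, all with overlapping ranges. The remaining 16 lay between -0.16 (Nkx6-2) and 0.10 (Mal).

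**Figure D3:**
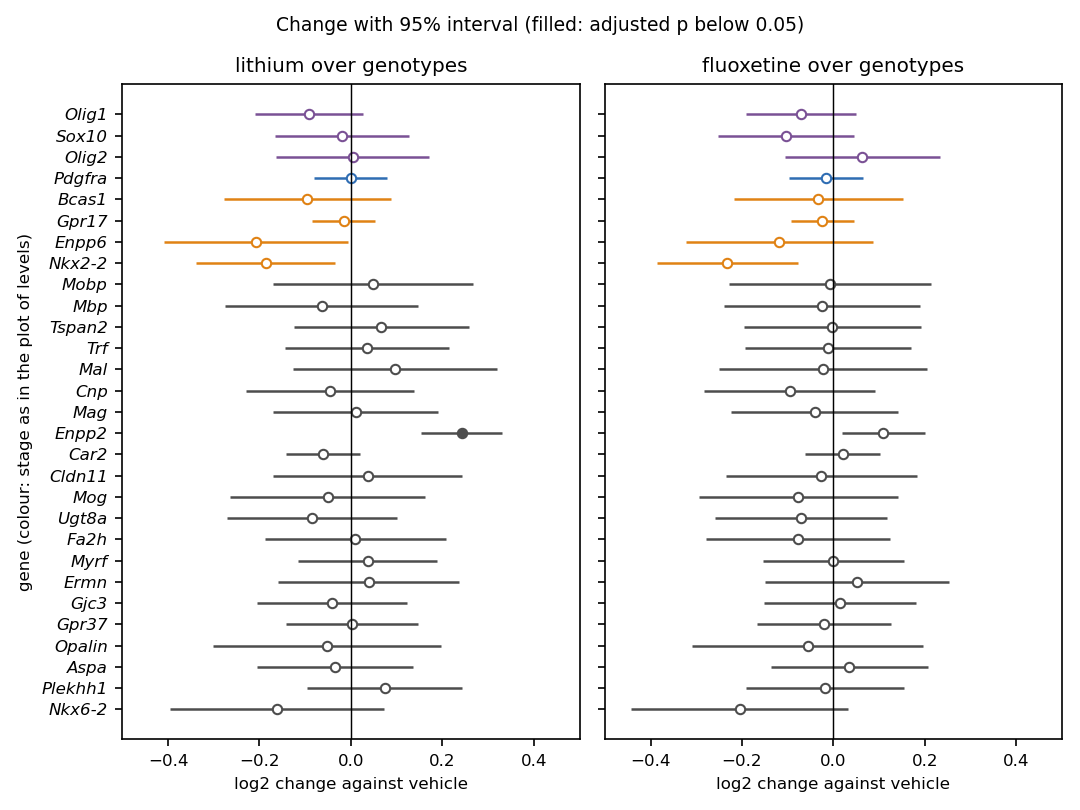
Log2 change of each of the 29 genes against vehicle, averaged over both genotypes, for lithium (left) and fluoxetine (right), with 95% intervals and the called gene filled. Enpp2 under lithium, at 0.24, is the only filled point, and the points of Enpp6 and Nkx2-2 lie at -0.21 and -0.19 on the left.

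Other genes of the lineage, counted from 3 further lists, gave few calls under lithium. Over both genotypes 0 of 12 precursor genes were called. Among 12 newly formed genes 2 were lower, the long non-coding RNA 9630013A20Rik (log2 change -0.29, SE 0.08, adjusted p = 0.0077) and the small GTPase gene Rras2 (-0.17, SE 0.05, adjusted p = 0.0090), and 9 of the 12 lay below vehicle. Among 25 myelinating genes the tetraspanin gene Cd9 was lower (-0.14, SE 0.04, adjusted p = 0.017), and 18 of the 25 lay below vehicle. In HT alone, Pcdh15, a protocadherin of precursors, was higher (0.17, SE 0.05, adjusted p = 0.019) and Cd9 lower (-0.17, SE 0.06, adjusted p = 0.047), and in WT alone 0 of these 49 genes were called, with 1 precursor and 2 newly formed genes lower at an unadjusted p under 0.05. The 3 calls of 49 over both genotypes stand beside 16.2% of all genes called.

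Under fluoxetine no member was called. The comparison called 0.146% of all genes in WT, 0.0450% in HT and 0.928% over both genotypes, and 0 of 29 members in each, with 0, 1 and 2 members at an unadjusted p under 0.05. The members' median log2 change was 0.00 in WT, where 15 of 29 were higher, and -0.07 in HT, where 25 of 29 were lower, with all-gene medians of 0.00. The HT median was 0.01 with 14 of 29 lower without the libraries with a striatal score over 1, -0.24 with 28 lower and 8 at an unadjusted p under 0.05 without those with an olfactory score over 1, and -0.16 without both sets. Only replicates 1 and 3 of the HT fluoxetine females remained once the libraries with a high olfactory score were left out. Pdgfra was at -0.02 over genotypes (95% interval -0.10 to 0.06), Gpr17 at -0.02 (-0.09 to 0.04), Mbp at -0.02 (-0.24 to 0.19), Mog at -0.08 (-0.29 to 0.14) and Sox10 at -0.10 (-0.25 to 0.05). Nkx2-2 stood lowest at -0.23 (95% interval -0.39 to -0.08, adjusted p = 0.13). Its counts were 66.8 to 145 (median 108) with fluoxetine in WT and 88.4 to 132 (median 110) in HT, against the vehicle values given above. Fluoxetine and lithium shared their vehicle libraries, so the low Nkx2-2 values under both drugs are not separate measurements. None of the 49 other lineage genes was called under fluoxetine in any of these 3 comparisons.

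Genotype left no call among the members. HT against WT called 0.00562% of all genes under vehicle, 0.0112% under fluoxetine, 0.0337% under lithium and 0.152% over the 3 treatments, and 0 of 29 members in each, with 0 at an unadjusted p under 0.05. Over treatments the members' log2 changes ran from -0.06 (Enpp2) to 0.07 (Nkx2-2), with a median of 0.00. Under vehicle, 26 of 29 members were higher in HT with a median of 0.04, against 51.6% of all genes. Mbp averaged 71459 ± 19237 in HT (SD, n = 10) and 66791 ± 19207 in WT vehicle libraries (SD, n = 9), a difference well inside the spread. That direction depended on the libraries and the fit. Omission of single libraries gave medians from -0.04 to 0.10. The median was -0.07 with 22 of 29 lower without the libraries with a striatal score over 1, 0.13 without those with an olfactory score over 1, and -0.01 with 17 lower with both scores as covariates. The drug effects did not differ detectably between genotypes: 0% of all genes and 0 of 29 members were called for genotype by fluoxetine, and likewise 0% and 0 of 29 for genotype by lithium, and 0 members had an unadjusted p under 0.05 in either.

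The genes of compact myelin varied together from library to library, and the 1 precursor gene of the set, Pdgfra, followed them only weakly. That weak relation is a result for Pdgfra and not for precursors as a stage. Deviations of log2(normalised count + 1) from the group mean were compared over the 56 libraries. Mbp and Mobp had r = 0.97 (rho = 0.97) and Mbp and Mog r = 0.97 (rho = 0.96), each with a permutation p of 1e-05, the smallest that 100000 permutations within groups can give, and 4.2e-05 after adjustment over the 17 pairs computed. Over the 20 myelinating genes other than Enpp2, the 190 pairs had a median r of 0.91 (0.60 to 0.98). Enpp2 stood apart, with r = -0.07 and rho = -0.08 against Mbp (permutation p = 0.63 and 0.59). The pair was added after its values were known, and the exclusion of Enpp2 from the median was too.

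Genes of earlier stages followed Mbp to different degrees. As a description without a test, Enpp6 and Bcas1 had r = 0.89 and 0.93 with Mbp, and Sox10, Olig1 and Olig2 0.88, 0.88 and 0.83. Gpr17 had r = 0.58 with Mbp (permutation p = 8e-05, adjusted 0.00023) and rho = 0.49 (p = 0.00071, adjusted 0.0015). By the same permutation it had r = 0.55 with Enpp6 (p = 0.00014, adjusted 0.00034) and rho = 0.48 (p = 0.00086, adjusted 0.0016). With Bcas1 it had r = 0.65 (permutation p = 3e-05, adjusted 0.0001) and rho = 0.52 (p = 0.00039, adjusted 0.0011). Pdgfra had r = 0.28 with Mbp (permutation p = 0.08, adjusted 0.12) and rho = 0.26 (p = 0.088, adjusted 0.14). With Gpr17 it had r = 0.09 and rho = 0.07 (permutation p = 0.57 and 0.63). Without the 2 libraries farthest out on the first gene, r was 0.97 for Mbp with Mobp, 0.47 for Mbp with Gpr17, 0.19 for Mbp with Pdgfra and 0.52 and 0.57 for Gpr17 with Enpp6 and Bcas1. The spread within groups was unequal: the SD of log2 values was 0.32 for Mbp, 0.34 for Mobp and 0.39 for Opalin, and 0.11 for Gpr17 and 0.13 for Pdgfra.

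The shifts of Mbp moved with the striatal markers. The striatal score had r = 0.70 and rho = 0.69 with Mbp (permutation p = 1e-05 for both, the smallest possible, adjusted 4.2e-05). It was 0.67 without the 2 libraries farthest out on the score, and 0.60 over the 39 libraries in which both scores were at most 1. All 7 libraries with a striatal score over 1 lay above their group mean of Mbp. The olfactory and meningeal scores had r = 0.19 and -0.06 with Mbp (permutation p = 0.22 and 0.71) and rho = 0.21 and -0.09 (p = 0.15 and 0.54). Within the 39 libraries Mbp and Mobp had r = 0.98, Mbp and Gpr17 0.45, Gpr17 and Bcas1 0.49, Gpr17 and Enpp6 0.33 and Mbp and Pdgfra 0.27. Pdgfra ran with the score of 6 endothelial genes (r = 0.76 and rho = 0.74, permutation p = 1e-05 for both, adjusted 4.2e-05, r = 0.72 without the 2 farthest libraries), a pair added after its values were known. Trf ran with the choroid plexus score (r = 0.42 and rho = 0.51, permutation p = 0.0028 and 0.00028, adjusted 0.0048 and 0.00095, r = 0.46 without the 2 farthest libraries), but with r = 0.22 over the 39 libraries. Whether the amount of white matter or neighbouring tissue in a dissection sets these relations was not tested.

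**Figure D4:**
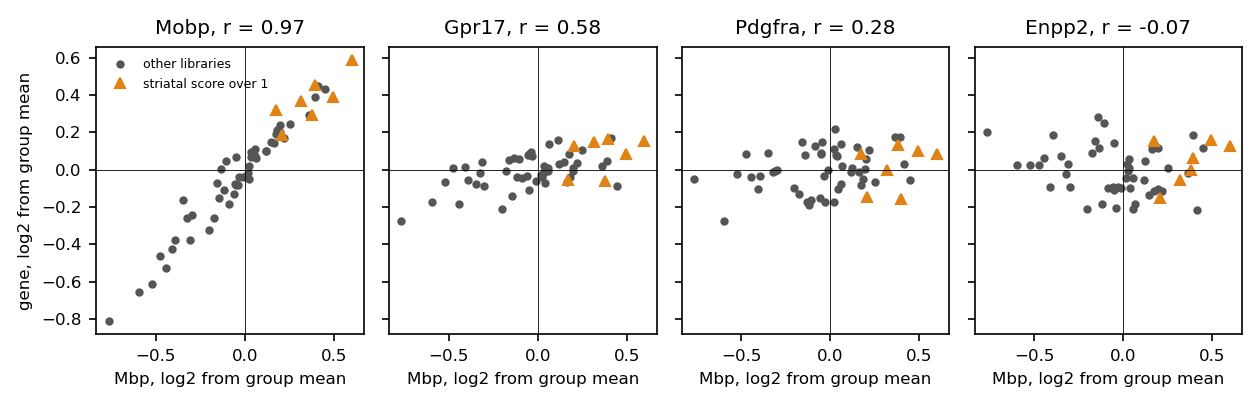
Deviation from the group mean (log2) of Mobp, Gpr17, Pdgfra and Enpp2 against that of Mbp in 56 libraries, with the 7 libraries whose striatal score was over 1 as triangles. Mobp follows Mbp closely (r = 0.97), Gpr17 less (0.58), and Pdgfra (0.28) and Enpp2 (-0.07) show little relation, while all triangles lie to the right of the group mean of Mbp.

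The members' drug effects tended to lie lower in females than in males, and none of these differences was called. Females against males called 0.197% of all genes and 0 of 29 members, with 0 at an unadjusted p under 0.05, and the members' median was -0.01. The effect of fluoxetine in females less that in males had a median of -0.36 over the members, with 28 of 29 below 0, and that of lithium a median of -0.33, with 29 of 29 below 0. The all-gene medians were 0.00 for both. These comparisons called 0% and 0% of all genes and 0 of 29 members each, with 15 and 13 members at an unadjusted p under 0.05, against 8.52% and 7.16% of all genes. Because the myelinating genes vary together, these members are not separate pieces of evidence. Both drugs were compared with the same vehicle females and males, so the medians for fluoxetine and lithium are not separate measurements either.

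Mbp shows the pattern in its values. With vehicle, WT females had 43504, 97014, 77036, 88096 and 77384, and WT males 60405, 43160, 52590 and 61927. HT females with vehicle had 70375, 74126, 110360, 48206 and 73796, and HT males 84574, 53488, 86524, 49588 and 63550. Under vehicle, Mbp was higher in 4 of 5 WT females than in any WT male, and the HT sexes overlapped. With fluoxetine the means were 61485 ± 10745 in WT females (n = 4), 71878 ± 17306 in WT males (n = 5), 62342 ± 13957 in HT females (n = 4) and 69634 ± 14088 in HT males (SD, n = 5). With lithium they were 61317 ± 15837 (n = 4), 67442 ± 11423 (n = 5), 61648 ± 5936 (n = 5) and 66350 ± 11923 (SD, n = 5), in the same order. The difference between the sexes in the drug effect on Mbp was -0.49 for fluoxetine (95% interval -0.91 to -0.06, adjusted p = 0.54) and -0.43 for lithium (-0.85 to -0.003, adjusted p = 0.70).

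The stages shared the direction to different degrees. For fluoxetine and lithium, the difference was -0.07 and -0.16 for Pdgfra, -0.08 and -0.12 for Gpr17, -0.43 and -0.45 for Enpp6, -0.37 and -0.39 for Bcas1, -0.30 and -0.37 for Sox10, -0.48 and -0.45 for Mobp and 0.08 and -0.02 for Enpp2. The mean score of the myelinating genes was 0.14 ± 0.37 in WT vehicle females (SD, n = 5) and -0.18 ± 0.15 in WT vehicle males (SD, n = 4). The mean striatal score in the same groups was 0.20 (-0.58 to 0.92) and -0.48 (-0.58 to -0.39). Among drug-treated libraries only males had a striatal score over 1. They were HT fluoxetine male 5, HT lithium male 2, WT fluoxetine male 1 and WT lithium males 4 and 5. Among vehicle libraries HT female 3 and HT male 3 had such a score. The part of this imbalance in the pattern was not tested beyond the fits given here. With the striatal and olfactory scores as covariates the members' median was -0.20 in place of -0.36 for fluoxetine and -0.15 in place of -0.33 for lithium, with 1 member at an unadjusted p under 0.05 in each. Without the libraries with a striatal score over 1 the medians were -0.27 and -0.25, with 2 members each at that level. Without those with an olfactory score over 1 they were -0.53 and -0.42, with 25 and 23 members, and without both sets -0.48 and -0.33, with 19 and 7. HT fluoxetine females kept only replicates 1 and 3 in these last fits, and the smallest group without both sets held 2 libraries. Omission of single libraries gave medians from -0.44 to -0.30 and from -0.41 to -0.28, with 4 to 25 and 3 to 26 members at an unadjusted p under 0.05.

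**Figure D5:**
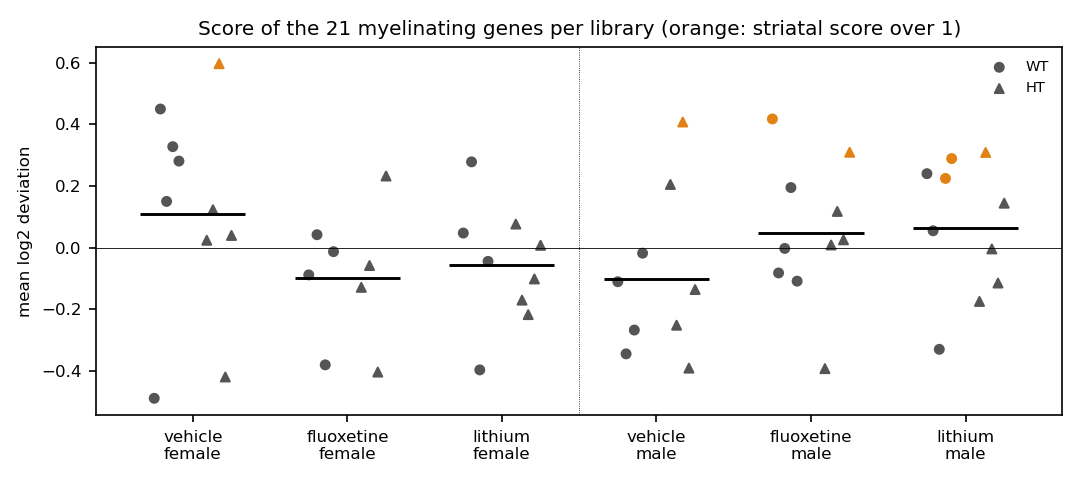
Score of the 21 myelinating genes in each library (mean log2 deviation from each gene's mean over 56 libraries), by sex and treatment, with WT as circles, HT as triangles, the mean of both genotypes as a line and libraries with a striatal score over 1 in orange. Vehicle females (means 0.14 in WT and 0.07 in HT) lie above vehicle males (-0.18 and -0.03), and the order is reversed with either drug.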

How the data were processed

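RNA of the prefrontal cortex of 56 mice was sequenced. Per the submitters' processing notes, Salmon 0.11.2, R 3.6.0 and DESeq2 1.19.11 were used on GRCm38. The authors deposited 1 table of normalised counts, a signal in which a gene's whole-number counts are divided by a size factor per library. Whole reads were recovered from its steps (100% of values within 0.01 reads). They summed to 24.3 to 36.4 M per library over the table's genes and served edgeR 4.0.16 and DESeq2 1.42.0 as alternatives. The 12 groups came from the labels.

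Values were tested as log2(value + 1) with limma 3.58.1 (R 4.3.3, trend and robust settings), with 12 group means, over 17778 genes with a value of at least 10 in at least 4 libraries, leaving out 310 genes. Promoter windows on mouse chromosome 18 were not used. A pseudocount of 1 understates changes of low genes. Comparisons over sexes or genotypes average the group effects equally. Adjustment was Benjamini-Hochberg within each of 15 comparisons, and the fits were tested on simulated data. Correlations used 100000 permutations within groups (Python, numpy). Alternatives were TMM rescaling, voom, other pseudocounts and no filter, the compared groups alone, a replicate block, marker scores as covariates, sets of libraries left out, and each library left out. The covariate of neuron markers, the separate omission of libraries rich in striatal or olfactory markers, and 5 of the 17 correlated pairs were chosen after seeing the data.

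All 29 genes are named. Counts by library are given for Enpp2 with vehicle and lithium. At least the level and the change under lithium are given for 10 anchors of the stages (Sox10, Olig2, Pdgfra, Gpr17, Bcas1, Enpp6, Mbp, Mog, Mobp and Opalin). Nkx2-2 was added because its call changed with the fit. Of 49 other lineage genes, at most 3 called per list and direction are named. The genes, the stages and the lists were chosen with earlier results of these data known. Markers of astrocytes, microglia, endothelium, neurons, interneurons, striatum, olfactory bulb, choroid plexus, ependyma, meninges and Schwann cells were followed. Under lithium over both genotypes, 0 of 8 astrocyte, 0 of 6 interneuron, 0 of 11 striatal, 0 of 10 olfactory, 0 of 8 choroid plexus, 0 of 2 ependymal and 0 of 2 Schwann markers were called. Lower calls were 3 of 8 microglial, 4 of 8 meningeal and 1 of 6 endothelial markers, and higher calls 1 of 6 endothelial and 1 of 7 neuron markers.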

Additional observations from a re-analysis of the deposited data

Results flagged for a closer look

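In 3 of 132 groups of 4 or 5 libraries checked (11 genes in 12 groups), 1 library lay far from the rest of its group, where chance flags about 1 in 20. Sox10 was 802 in HT lithium female 4 against 983 to 1056 in the other libraries of its group of 5. Olig2 was 522 in WT lithium male 3 against 619 to 658 in its group of 5. Bcas1 was 1998 in WT fluoxetine female 3 against 2521 to 2604 in its group of 4. HT lithium female 4 is also 1 of the 3 libraries without which the HT call of Enpp2 was lost.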

How the results depend on the processing

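Sign was checked for the comparison in which each member had its smallest p, and none of these changes reversed. For Enpp2 it was checked for lithium in WT, in HT and over both genotypes. The members' medians did turn in some settings, as given above for genotype under vehicle and for fluoxetine in HT. With the neuron score as a covariate the lithium count of members in WT was 0 instead of 1. The lithium count in HT was 0 to 1 over the omission of single libraries. The lithium count over both genotypes was 2 when only the groups compared were fitted, 3 with striatal and olfactory scores as covariates, and 1 to 2 over single omissions. The fit of the compared groups alone was not run for the 2 comparisons that use all 12 groups (females against males, genotype over treatments). The counts of all other comparisons stayed at 0 in the settings run, edgeR and DESeq2 included. Per kb of the longest transcript, the stage medians were 822 (myelinating), 386.6 (newly formed) and 284 (precursor) instead of 1348, 510 and 675. A fit with the replicate number as a block kept every count of members, with an adjusted p for Enpp2 under lithium of 0.00024 over genotypes, 0.011 in WT and 0.030 in HT. The numbers do not pair the libraries, since 292 same-numbered pairs had a median r of -0.0016 (others -0.00023) and 11 of 56 libraries correlated best with their own number. Over the alternatives the adjusted p of Enpp2 over genotypes ran from 8.5e-06 to 0.0018. Without the 17 libraries with a striatal or olfactory score over 1, Enpp2 was at 0.25 in WT and 0.27 in HT (adjusted p = 0.039 and 0.045). The smallest group then held 2 libraries. The spread of the myelinating genes limits detection, with intervals of up to 0.25 (log2) on either side of a drug change over genotypes.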
